A study of Mus musculus with 25 samples.

Results

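Translocation junctions between a Cas9 cut and a replication fork barrier were compared between mouse embryonic stem cells that received Tus with siRNA against FANCM and the same cells that received Tus with siRNA against luciferase. All junctions deposited for these groups were used, which gave 2751 of the 11867 junctions of the series, with 1326 from siFANCM cells and 1425 from siLuciferase cells. Both groups carried the BRCA1del/exon11 genotype, called BRCA1del here, and the labels do not say whether the line was 1 clone. All cells grew on feeder fibroblasts and carried, in the ROSA26 locus, a reporter of 4 kb with an array of 6 Ter elements and an I-SceI site. All received a Cas9 bait cut 30 kb from the cassette, and DNA was taken 48 h after transfection. The labels list 3 samples in each group. For the comparison with the other genotype, called BRCA1flox (BRCA1flox/exon11), 1313 junctions of Tus with siFANCM and 1181 of Tus with siLuciferase were used, from 3 and 2 labelled samples.

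FANCM is a DNA translocase of the Fanconi anaemia pathway that binds branched DNA and remodels stalled replication forks. Tus is a bacterial protein that binds Ter DNA and blocks forks arriving from one side, so that a Tus-bound array in a mammalian chromosome gives a stalled fork at a known place. BRCA1 promotes homologous recombination, and breaks that are not repaired in this way can be joined through end joining, directly or through short matching stretches of both ends, called microhomology. siRNA against luciferase has no target in these cells and serves as the control. The files hold DNA joins, so FANCM depletion and cell identity were not checked here.

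The assay, linear amplification-mediated translocation sequencing, copies whatever has become joined to the bait from a primer beside the cut. Each read therefore runs through the bait into the joined DNA, called the prey, and shows how both ends were trimmed. The bait sequence below was rebuilt from the reads, and its last base, the furthest one that the reads shared, was read as the cut. The other lines show the bait up to the join for the 4 most used microhomology words of 3 bp or more, because they show which bait bases were matched to the array. In the first line, capitals mark the last 30 bases before the cut. In the other lines they mark the bases shared by bait and prey.
Bait, last 60 bases before the cut: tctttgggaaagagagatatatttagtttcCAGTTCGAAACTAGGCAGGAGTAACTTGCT
Join 3 bp back from the cut: ttccagttcgaaactaggcaggagtaACTT
Join 5 bp back from the cut: gtttccagttcgaaactaggcaggagtAAC
Join 8 bp back from the cut: ttagtttccagttcgaaactaggcaggAGT
Join 32 bp back from the cut: tgtctttgggaaagagagatataTTTAGTT

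Samples of a group are pooled in 1 table, but each read name carries its sequencing run, and each run of a group was taken as 1 library. siFANCM had libraries in runs A, C and D with 686, 492 and 148 junctions. siLuciferase had libraries in runs B, C and D with 602, 570 and 253 junctions. Only runs C and D held both groups, and they carried the main comparison. Run D was the shallowest, and its siFANCM library had 71 joins in the array window. Nothing in the labels says that samples were separate cultures, so the permutation p-values over libraries measure only the spread of these libraries, which may be technical. All other tests take junctions as units. Reads were amplified and are not independent molecules, so these tests and the intervals cover counting error only, and within 1 run they compare 1 library with 1 library.

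Positions are given in the cassette's own coordinates. The array window ran from 3025 to 3276, with the first Ter element at 3049 to 3071, the sixth at 3222 to 3244 and the I-SceI site at 3259 to 3276. It interrupts an EGFP coding sequence from 2637 to 3604. The body of the cassette was taken as 1 to 3616 and the rest, to 3928, as the polyA region. A join was called leftward where the prey ran toward position 1 and rightward where it ran toward 3928. Joins were called placed where the reads ran on past the repeated Ter stretch into 20 bp or more of unique cassette sequence. Counts by deposited position, by join site and by microhomology word also include joins not placed. The position of those within the array may stand for either repeat.

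With siRNA against FANCM, no share of joins passed as different from siLuciferase in the test that combined the shared runs. Of 10 shares tested, covering where joins fell, which way the prey ran and how the ends were joined, 0 passed at an adjusted p under 0.05 by the exact conditional test of a common odds ratio over runs C and D with Benjamini-Hochberg adjustment, and 0 had an unadjusted p under 0.05. The smallest adjusted p was 0.399. Direction differed between the runs in 9 of the 10 shares, and only the rightward share was lower with siFANCM in both. The combined test averages over such opposite differences, so it cannot show that the groups were alike within each run. For the array share, the difference was 6.17 points in run C and -15.7 points in run D. Over all 3 libraries against 3, exact two-sided permutation p lay between 0.3 and 1, where the smallest p this design allows is 0.10. The permutation ignored run, so it did not compare libraries within runs C and D, and it took in runs A and B.

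**Figure D1:**
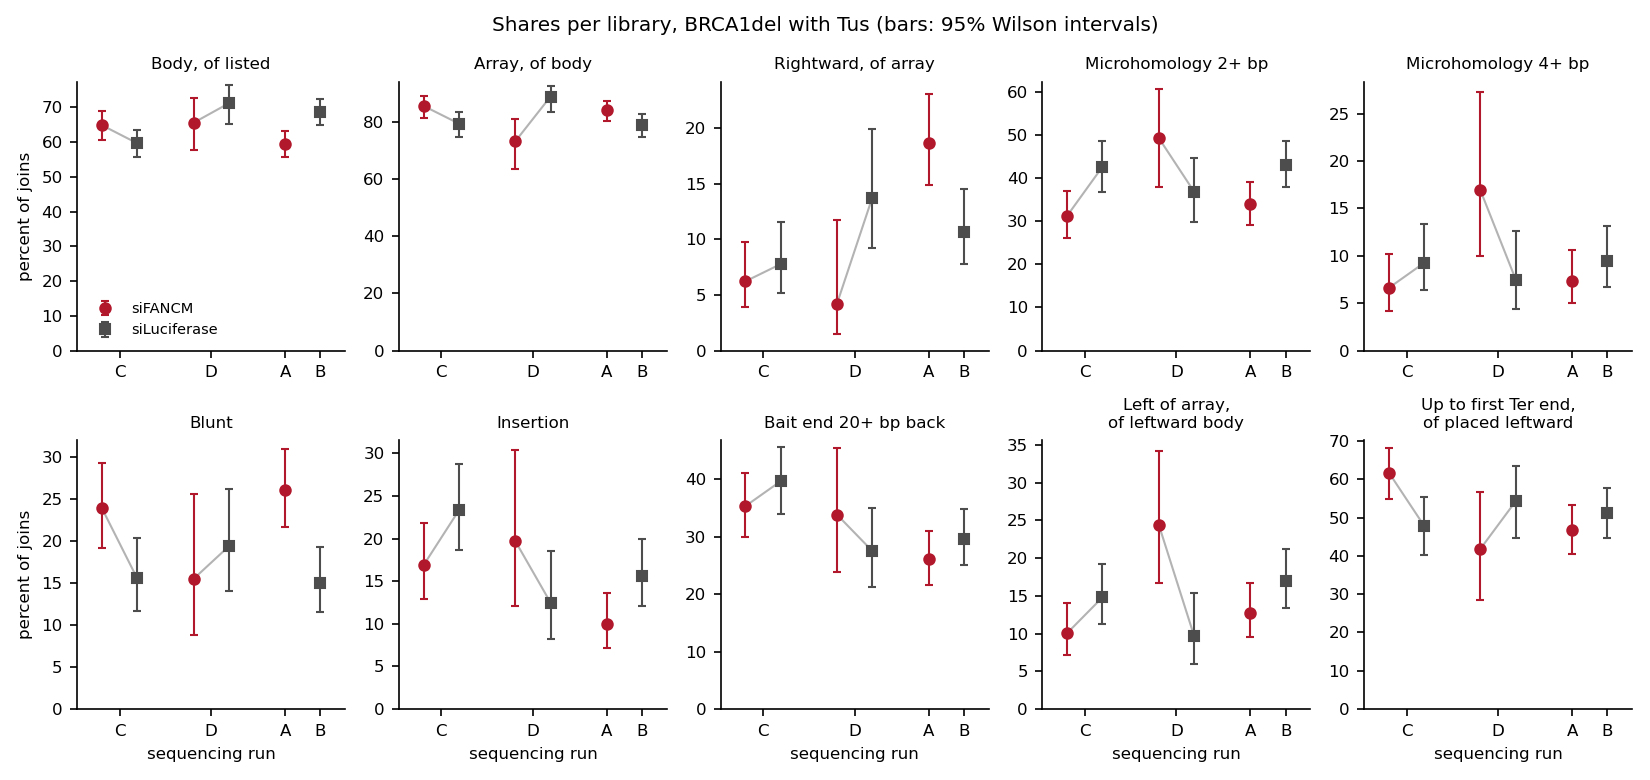
Each panel shows 1 share of joins in percent (y axis) for each library, with siFANCM as red circles left of siLuciferase as grey squares, by sequencing run (x axis), and grey lines link the libraries of a shared run. Bars are 95% Wilson intervals. The lines of runs C and D slope in opposite directions in every panel but that of rightward joins.

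Joins in the cassette body were common in both groups. The body held 59.5%, 64.8% and 65.5% of junctions in siFANCM runs A, C and D, against 68.8%, 59.6% and 71.1% in siLuciferase runs B, C and D. The ranges overlap, and siFANCM was higher in run C and lower in run D. Within the shared runs the difference was 2.37 percentage points (95% interval -2.60 to 7.34, adjusted p = 0.629, exact conditional test). With a control labelled EV, read here as empty vector, in place of Tus, siFANCM libraries of the same genotype had 2 of 188 junctions in the body in run A and 3 of 280 in run C, and 1 array join in all.

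Within the body most joins fell in the array. The array window held 84.1%, 85.6% and 73.2% of body joins with siFANCM in runs A, C and D, against 79.0%, 79.4% and 88.9% with siLuciferase in runs B, C and D. Run D stood apart in both groups, with the lowest siFANCM value and the highest siLuciferase value. The shared-run difference was 0.114 points (-4.89 to 5.11, adjusted p = 1, exact conditional test). It combined 6.17 points in run C and -15.7 points in run D. In run D the siFANCM library was below the siLuciferase library, which compares 1 library with 1. The 3 siFANCM libraries also differed among themselves (adjusted p = 0.0331, Fisher's exact test across libraries). So did the 3 siLuciferase libraries (adjusted p = 0.0270, Fisher's exact test across libraries). For the difference itself, a test of whether the runs differed passed (adjusted p = 0.00104, siRNA-by-run term of a logistic model, binomial likelihood-ratio test).

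Joins left of the array mirrored this split, but their share is largely the complement of the array share. In siFANCM run D, 71 of 97 body joins lay in the array and 22 were leftward joins left of it. The tests of these 2 shares are therefore not independent. Of leftward body joins, 12.7%, 10.1% and 24.4% lay left of the array with siFANCM in runs A, C and D, against 17.0%, 14.8% and 9.74% with siLuciferase in runs B, C and D. The highest value was that of the siFANCM library in run D, with 22 of 90 joins (95% Wilson interval 16.7% to 34.2%). Within the shared runs the difference was 0.661 points (-4.07 to 5.39, adjusted p = 0.930, exact conditional test), made of -4.73 points in run C and 14.7 points in run D. By Fisher's exact test the 2 libraries of run D differed (adjusted p = 0.0143), and the runs differed (adjusted p = 0.00242, siRNA-by-run term), both with 1 library per group and run. Within 100 bp of the array lay 55 of these 92 joins with siFANCM (59.8%), against 58 of 121 with siLuciferase (47.9%). The median distance was 58, 52 and 148.5 bp in siFANCM runs A, C and D, against 149, 73 and 53 bp in siLuciferase runs B, C and D. These distances were not tested.

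Prey orientation is the measure in which both shared runs pointed one way. Of array joins, 64 of 343, 17 of 273 and 3 of 71 ran rightward with siFANCM in runs A, C and D, against 35 of 327, 21 of 270 and 22 of 160 with siLuciferase in runs B, C and D. These counts are 18.7%, 6.23% and 4.23% with siFANCM, against 10.7%, 7.78% and 13.8% with siLuciferase. The siFANCM library of run A was the highest of all and those of runs C and D the lowest, so the groups overlap. Within the shared runs the share was 3.67 points below siLuciferase (difference -3.67, -7.34 to 0.0015, odds ratio 0.594), which did not pass (adjusted p = 0.399, exact conditional test). Over all runs the difference was 1.92 points, with siFANCM higher (adjusted p = 0.463, Fisher's exact test). Without siFANCM run A it was -4.49 points (adjusted p = 0.0884, Fisher's exact test). Without siFANCM run C, which leaves siFANCM runs A and D, it was 5.88 points and passed the threshold (adjusted p = 0.0201, Fisher's exact test). The 3 siFANCM libraries differed among themselves in this share (adjusted p = 1.11e-05, Fisher's exact test across libraries), while the same test of the siLuciferase libraries gave 0.225. By deposited position, 56 of 84 rightward joins with siFANCM (66.7%) and 36 of 78 with siLuciferase (46.2%) lay in Ter elements 4 to 6, and 19 and 23 lay in Ter elements 2 and 3. Among placed joins these numbers were 56 of 68 and 36 of 49 in elements 4 to 6, but 5 and 1 in elements 2 and 3. By deposited position, elements 4 to 6 held 44 of 64, 10 of 17 and 2 of 3 in siFANCM runs A, C and D. In siLuciferase runs B, C and D they held 15 of 35, 11 of 21 and 10 of 22. Most of the siFANCM joins there thus came from run A, which has no siLuciferase library. These positions were not tested. Placement needs a read past the array, so it drops rightward joins of the first elements more than those of the last.

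Leftward joins were the main class. Placement drops those of the last Ter elements more than those of the first, since the read must cross the array. By deposited position, which may stand for either repeat in joins not placed, Ter elements 4 to 6 held 153 of 603 leftward joins with siFANCM (25.4%) and 195 of 679 with siLuciferase (28.7%). The first element held 182 with siFANCM (30.2%) and 192 with siLuciferase (28.3%). Of leftward joins, 79.6%, 76.6% and 63.2% were placed in siFANCM runs A, C and D, against 75.7%, 65.5% and 76.1% in siLuciferase runs B, C and D. The values that follow describe placed joins and their order along the array only within that limit. The median placed position was 3073, 3066 and 3077 in siFANCM runs A, C and D, against 3071, 3073 and 3069 in siLuciferase runs B, C and D. All medians thus lay between the later part of the first Ter element and the start of the second. Pooled over runs, the first element itself held 172 of 461 placed leftward joins with siFANCM, against 178 of 489 with siLuciferase. The stretch of Ter elements 2 and 3 held 147 with siFANCM, against 185 with siLuciferase. Elements 4 to 6 held 49 and 40 placed joins, and the stretch before the first element held 71 and 70, with siFANCM first in both. Few placed joins lay past the last Ter element, with 1 in each group.

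The share of placed leftward joins at or before the end of the first Ter element was 46.8%, 61.7% and 41.9% with siFANCM in runs A, C and D, against 51.1%, 47.9% and 54.3% with siLuciferase in runs B, C and D. siFANCM held both the highest value, in run C, and the lowest, in run D. The shared-run difference was 7.17 points (-1.69 to 16.0, adjusted p = 0.399, exact conditional test). It was 13.9 points in run C and -12.4 points in run D, and these differed (adjusted p = 0.0291, siRNA-by-run term, binomial likelihood-ratio test). In run C the first element alone held 92 of 196 placed joins with siFANCM, against 49 of 163 with siLuciferase. In run D it held 12 of 43 with siFANCM, against 46 of 105 with siLuciferase.

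**Figure D2:**
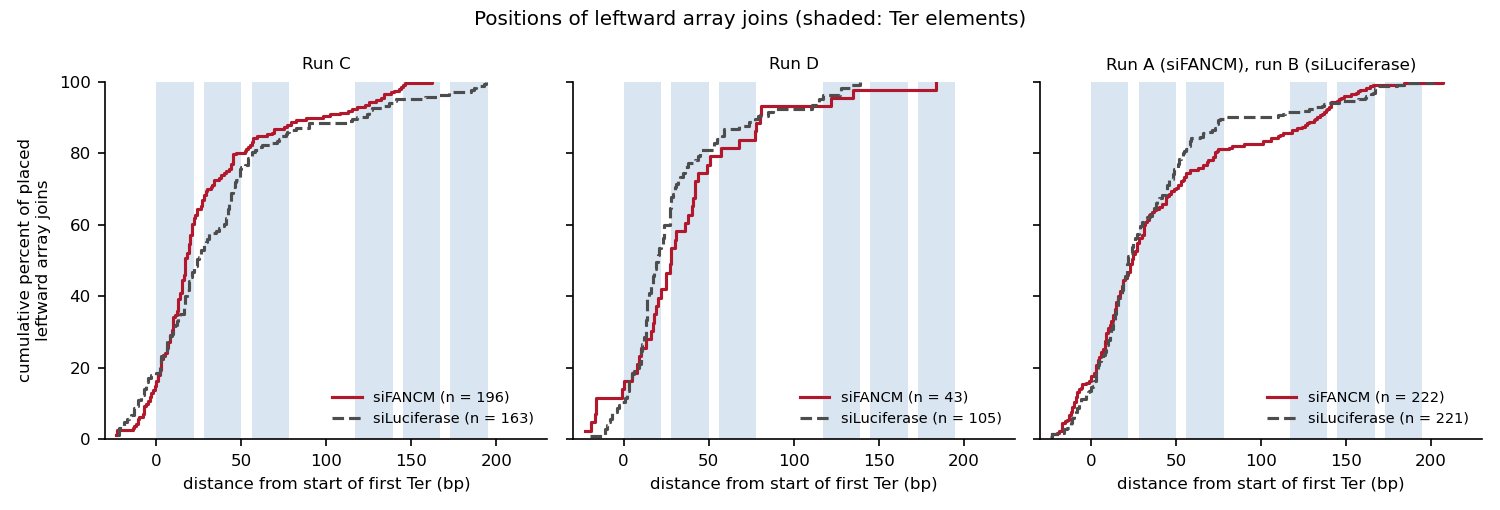
Cumulative percent of placed leftward array joins (y axis) against the distance from the start of the first Ter element in bp (x axis), with siFANCM as red solid lines and siLuciferase as grey dashed lines, and Ter elements shaded. The siFANCM line lies above the siLuciferase line over most of the array in run C. In run D it lies above the siLuciferase line before the first element. It lies below that line from the middle of the first element to the end of the third.

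The structure of the join was called for 685 of 687 array joins with siFANCM and all 757 with siLuciferase. Joins with 1 bp of microhomology were the most frequent class in both groups, with 27.7% of siFANCM joins and 24.6% of siLuciferase joins over all runs. Blunt joins, with neither shared nor added bases, made up 24.1% with siFANCM, against 16.1% with siLuciferase. Joins with 2 bp of microhomology made up 18.4% with siFANCM, against 23.0% with siLuciferase, and 5 bp or more was rare, at 1.90% and 2.25%. The longest overlap in the array was 7 bp in either group.

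**Figure D3:**
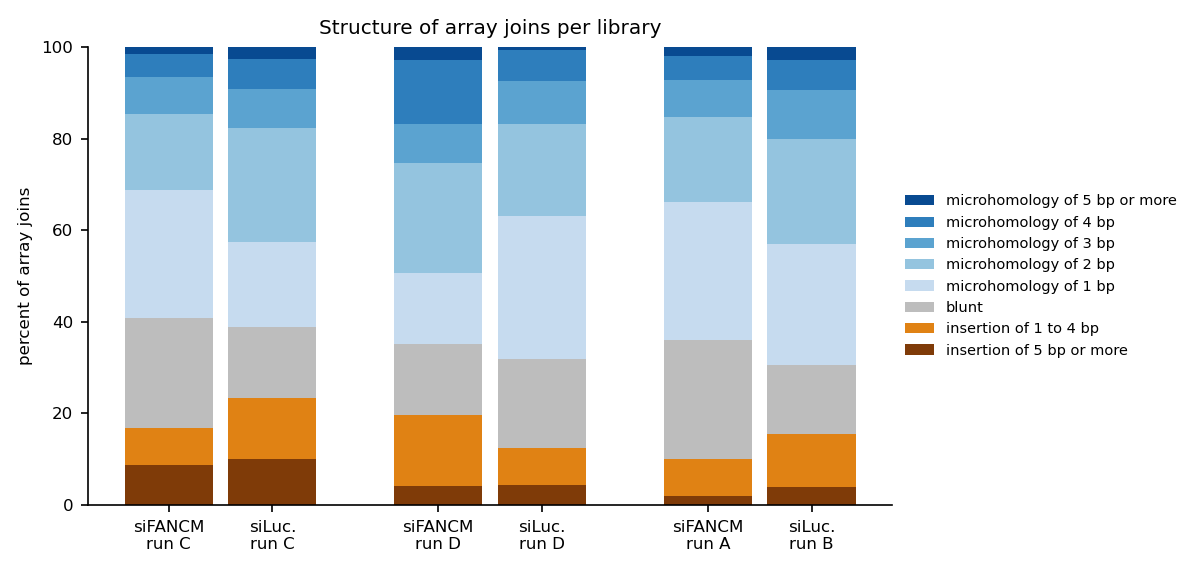
Stacked bars give the percent of array joins (y axis) in each structure class for each library (x axis), with siFANCM left of siLuciferase in each pair and colours running from insertions at the bottom through blunt joins to the longest microhomology at the top. Blunt joins take 23.9% of the siFANCM bar and 15.6% of the siLuciferase bar in run C, but 15.5% and 19.4% in run D.

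Microhomology of at least 2 bp was present in 33.9%, 31.2% and 49.3% of array joins with siFANCM in runs A, C and D, against 43.1%, 42.6% and 36.9% with siLuciferase in runs B, C and D. Runs A and C of siFANCM lay below all siLuciferase libraries and run D above them. Within the shared runs the difference was -5.01 points (-12.0 to 1.96, adjusted p = 0.431, exact conditional test), made of -11.3 points in run C and 12.4 points in run D. The 2 runs differed (adjusted p = 0.0109, siRNA-by-run term, binomial likelihood-ratio test). Pooled over all runs, 236 of 685 joins against 315 of 757 gave -7.16 points, past the threshold by Fisher's exact test (adjusted p = 0.0282). Without siFANCM run A or C it was -6.63 and -5.05 points, and without siLuciferase run B or C -6.01 and -6.62 points, each short of the threshold (adjusted p = 0.0776 to 0.174, Fisher's exact test). Without run D it passed, at -8.88 points without the siFANCM library (adjusted p = 0.00386, Fisher's exact test) and -8.43 points without the siLuciferase library (adjusted p = 0.0113, Fisher's exact test). The pooled comparison takes in runs A and B, which hold only 1 group each.

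Overlaps of at least 4 bp showed the same split. They were found in 7.31%, 6.62% and 16.9% of siFANCM joins in runs A, C and D, against 9.48%, 9.26% and 7.5% of siLuciferase joins in runs B, C and D. The siFANCM library of run D was the highest, from 12 of 71 joins. The shared-run difference was 0.565 points (-3.64 to 4.77, adjusted p = 0.930, exact conditional test), and the runs differed (adjusted p = 0.0365, siRNA-by-run term).

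Blunt joins made up 26.0%, 23.9% and 15.5% with siFANCM in runs A, C and D, against 15.0%, 15.6% and 19.4% with siLuciferase in runs B, C and D. As with microhomology, run D stood apart: siFANCM runs A and C lay above every siLuciferase library. The shared-run difference of 5.09 points did not pass (-0.532 to 10.7, adjusted p = 0.399, exact conditional test). The difference over all runs was 7.97 points, past the threshold by Fisher's exact test (adjusted p = 0.00164). It was 6.04 points without siFANCM run A (adjusted p = 0.0884, Fisher's exact test) and 7.11 points without siLuciferase run B (adjusted p = 0.0540, Fisher's exact test). Both fell short of the threshold. With any other library left out it passed, at 7.66 to 8.97 points. Runs A and B hold only 1 group each, so that run and siRNA cannot be told apart there.

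Insertions were bases left between the matched bait part and the matched prey part of a read, and their origin was not examined. They were present in 9.94%, 16.9% and 19.7% of siFANCM joins in runs A, C and D. With siLuciferase they were present in 15.6%, 23.3% and 12.5% of joins in runs B, C and D. The shared-run difference was -2.79 points (-8.47 to 2.90, adjusted p = 0.629, exact conditional test). Run C carried the most insertions of at least 5 bp in both groups, with 24 of 272 siFANCM joins and 27 of 270 siLuciferase joins. In the other libraries such insertions made up 2.05% and 4.23% with siFANCM in runs A and D, against 3.98% and 4.38% with siLuciferase in runs B and D.

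Trimming of the bait covered a similar range in the groups. The median distance from the last bait base in the join back to the cut was 7, 11.5 and 13 bp in siFANCM runs A, C and D, against 8, 13 and 8 bp in siLuciferase runs B, C and D. A bait end 20 bp or more back was seen in 26.0%, 35.3% and 33.8% of siFANCM joins, against 29.7%, 39.6% and 27.5% of siLuciferase joins. The shared-run difference was -1.50 points (-8.41 to 5.40, adjusted p = 0.930, exact conditional test).

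Pooled over runs, the same bait ends were used most in both groups. The untrimmed end, ending in the last capital of the bait line above, was used in 117 siFANCM joins (17.1%) and 110 siLuciferase joins (14.5%). The end 3 bp back was next, with 64 siFANCM joins (9.34%) and 65 siLuciferase joins (8.59%), and 57.4% of these joins carried microhomology in the groups combined. In siFANCM run D the order was reversed, with 12 joins at the end 3 bp back and 7 at the untrimmed end. The end 1 bp back was rarer in siFANCM when pooled, with 10 joins against 25 in siLuciferase, and none of its joins carried microhomology of 2 bp or more. By library it took 2.34%, 0.368% and 1.41% in siFANCM runs A, C and D. In siLuciferase runs B, C and D it took 3.98%, 3.33% and 1.88%, so the groups overlap. These values were not tested.

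Of shared words of 3 bp or more, ACTT was used most. Its joins fell at 10 deposited positions in the array and were all leftward. ACTT was used in 5, 5 and 7 siFANCM joins of runs A, C and D, against 9, 5 and 6 siLuciferase joins of runs B, C and D. In siFANCM run D these 7 joins were 9.86% of array joins with called structure, against 1.46% to 3.75% in the 5 other libraries. AAC was used in 7 siFANCM joins and 12 siLuciferase joins, and AGT in 10 and 9. The longest listed word, TTTAGTT, lay 32 bp back from the cut and was used in 7 siFANCM joins and 6 siLuciferase joins, all leftward.

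Microhomology depended on where the bait ended in both groups. With the bait end at the cut, 5.98% of 117 siFANCM joins carried it, against 9.09% of 110 siLuciferase joins. With the end 1 to 19 bp back, it was 37.3% of 359 siFANCM joins, against 44.6% of 399 siLuciferase joins. With the end 20 bp or more back, it was 45.5% of 209 siFANCM joins, against 51.2% of 248 siLuciferase joins. These pooled siFANCM shares were the lower ones, but not in every library. In run D, 22 of 40 siFANCM joins with ends 1 to 19 bp back carried microhomology, against 40 of 85 siLuciferase joins. With ends 20 bp or more back, 55.1%, 34.4% and 54.2% carried it in siFANCM runs A, C and D, against 52.6%, 54.2% and 40.9% in siLuciferase runs B, C and D. These values were not tested. For ends 1 to 19 bp back, 43 of 184 joins (23.4%), 33 of 135 (24.4%) and 8 of 40 were blunt with siFANCM in runs A, C and D. With siLuciferase in runs B, C and D, 25 of 186 (13.4%), 19 of 128 (14.8%) and 13 of 85 (15.3%) were blunt. In that class the libraries of the groups did not overlap, whereas in the 2 other classes they did. With the end at the cut, 31 of 69, 18 of 41 and 0 of 7 joins were blunt in siFANCM runs A, C and D, against 15 of 44, 12 of 35 and 11 of 31 in siLuciferase runs B, C and D. With the end 20 bp or more back, 16.9%, 14.6% and 12.5% were blunt in siFANCM runs A, C and D, against 9.28%, 10.3% and 15.9% in siLuciferase runs B, C and D. The classes were cut after the values were seen and were not tested.

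Individual join sites gave no call. A site was a position and orientation with at least 10 junctions in the shared runs, and of 17 sites 0 passed at an adjusted p under 0.05 (0% called, exact conditional test with Benjamini-Hochberg adjustment), with 1 (5.88%) at an unadjusted p under 0.05. The smallest adjusted p was 0.766. The busiest site was 3910 leftward in the polyA region, with 25 and 5 junctions in siFANCM runs C and D, against 49 and 9 in siLuciferase runs C and D. These are 5.08% and 3.38% of the siFANCM libraries, against 8.60% and 3.56% of the siLuciferase libraries, a difference of -2.64 points (adjusted p = 0.766, exact conditional test). This was the site with the unadjusted p under 0.05 (p = 0.0451, exact conditional test). With each position, strand and bait end counted once per library, its difference was -0.750 points (unadjusted p = 0.572, exact conditional test). With all runs pooled it was -0.0124 points. The 3 next sites also lay in the polyA region. Site 3728 rightward had 18 and 6 junctions in siFANCM runs C and D, against 17 and 4 in siLuciferase runs C and D. Site 3855 rightward had 12 and 4 with siFANCM, against 13 and 9 with siLuciferase, and site 3843 leftward had 15 and 4 with siFANCM, against 10 and 4 with siLuciferase.

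The 3 most used array sites lay in the first Ter element. Site 3066 leftward had 9 and 1 junctions in siFANCM runs C and D, against 5 and 4 in siLuciferase runs C and D. Site 3059 leftward had 7 and 1 with siFANCM, against 2 and 5 with siLuciferase. Site 3068 leftward, with as many junctions in the shared runs as 3059, had 5 and 2 with siFANCM, against 6 and 2 with siLuciferase. As shares of their libraries, the first 2 sites were higher with siFANCM in run C and lower in run D, and site 3068 was lower in run C and higher in run D. Over all runs and bait ends, siFANCM had 584 distinct array joins and siLuciferase 622. Of these, 166 were found in both, which is 28.4% of the siFANCM joins and 26.7% of the siLuciferase joins. Within a group, siFANCM runs A and C shared 61 joins (18.3% and 23.2%) and siLuciferase runs B and C shared 57 (18.2% and 21.5%). Between the groups, siFANCM run A and siLuciferase run B shared 74 (22.2% and 23.6%). The libraries of run C shared 43 (16.3% of siFANCM and 16.2% of siLuciferase). Overlap was not tested.

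The siFANCM difference was set against that in BRCA1flox cells within runs C and D, which held all 4 groups. Here 2 of 10 shares differed between the genotypes. Rightward array joins were 6.23% and 4.23% in BRCA1del siFANCM runs C and D, against 7.78% and 13.8% in BRCA1del siLuciferase. In BRCA1flox they were 4.72% and 9.73% with siFANCM, against 1.84% and 1.29% with siLuciferase. siFANCM was thus lower in both runs in BRCA1del and higher in both in BRCA1flox. The ratio of the siFANCM odds ratios, BRCA1del over BRCA1flox, was 0.158 (adjusted p = 0.000281, interaction term of a logistic model over the junctions, binomial likelihood-ratio test). It rests on few joins, since BRCA1flox siLuciferase had 9 of 490 and 2 of 155 rightward joins. Without run D the ratio was 0.297 and did not pass (adjusted p = 0.108, binomial likelihood-ratio test).

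For the body share the siFANCM difference was 5.19 points in run C and -5.61 points in run D in BRCA1del, against -14.3 and -14.6 points in BRCA1flox. The body held 64.8% and 65.5% of junctions in BRCA1del siFANCM runs C and D, against 59.6% and 71.1% in BRCA1del siLuciferase. In BRCA1flox it held 63.0% and 72.5% with siFANCM, against 77.4% and 87.1% with siLuciferase. The ratio of odds ratios was 2.33 (adjusted p = 5.46e-07, binomial likelihood-ratio test), and without run C it was 1.97 (adjusted p = 0.0558). The highest value in each run was that of BRCA1flox siLuciferase. Body shares have polyA-region joins in their denominator. In the polyA region 73.3% of siFANCM reads and 69.3% of siLuciferase reads in BRCA1del, of those with a located prey start, continued beyond the cassette into other DNA that was not adapter, against 4.50% and 3.75% in the body.

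**Figure D4:**
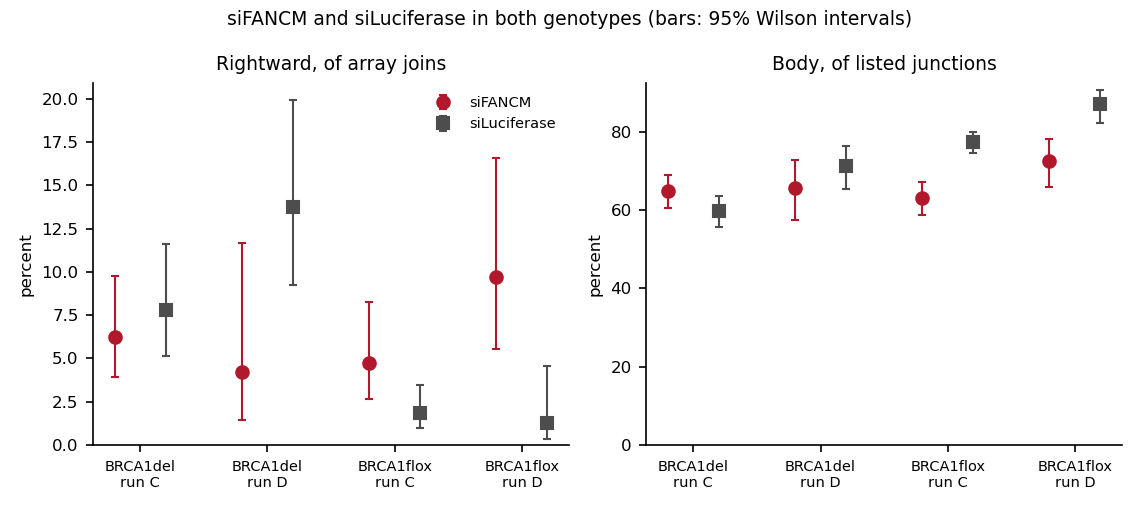
Percent of array joins that were rightward (left panel) and percent of junctions in the cassette body (right panel), y axes, in runs C and D of both genotypes (x axis), with siFANCM as red circles left of siLuciferase as grey squares and 95% Wilson intervals as bars. Rightward joins with siFANCM lie below siLuciferase in both BRCA1del runs and above it in both BRCA1flox runs, and the BRCA1flox siLuciferase libraries have the highest body shares, 77.4% and 87.1%.

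The spread among libraries of 1 group was of the size of these differences. The siFANCM libraries differed from each other in 8 of 10 shares by Fisher's exact test across libraries (adjusted p under 0.05), and the siLuciferase libraries in 4 of 10. Over its 3 libraries the microhomology share was 38.2% ± 9.7 with siFANCM and 40.9% ± 3.5 with siLuciferase (SD, n = 3 each). The rightward share was 9.70% ± 7.82 with siFANCM and 10.7% ± 3.0 with siLuciferase (SD, n = 3 each). The blunt share was 21.8% ± 5.6 with siFANCM and 16.6% ± 2.4 with siLuciferase (SD, n = 3 each). Run D, the shallowest run, held the siFANCM library that went against the 2 others in microhomology, blunt joins and the array share. Its share left of the array, largely the complement of its array share, did so too. Its reads had a median length of 246 bases, against 277.5 and 257 in siFANCM runs A and C and 285, 251 and 256 in siLuciferase runs B, C and D. The part of depth or read length in the results was not tested.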

How the data were processed

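The authors deposited 1 table per group with 1 junction per line, and the values used are positions in a cassette reference, with the strand, the ends of the alignment, and the name and sequence of the read. They are neither counts nor signals. The submitters' processing notes name Bowtie2 and mm9, while filters and duplicate removal are not given in the sources used here. No read name or sequence was repeated. Bait and cassette were rebuilt from the reads by voting in 10 passes, and 1 base that 345 of 345 spanning reads held beyond the deposited coordinates was added for the structure calls. Bait parts were followed with exact 10-bp seeds and prey parts with 12-bp seeds. Structure was called for 2746 of 2751 junctions (99.8%), and the caller and tests were tested on simulated data. Each run of a group was taken as 1 library, and nothing ties a run to a labelled sample.

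Shares were compared with mantelhaen.test (exact) in R 4.3.3 over runs C and D, with Mantel-Haenszel differences and 95% intervals, and Benjamini-Hochberg adjustment over the 10 shares. All tests were two-sided. Fisher's exact test, exact permutation over libraries (scipy 1.17.1) and likelihood-ratio tests of logistic models were run beside it. The sites named are the 6 with the most junctions in the shared runs, with 1 more that tied for the last place, and any site called. The members, shares and classes were chosen with earlier results of these data known. The siRNA-by-run test was added after values were seen. Alternatives covered pooling of runs, each library left out, each join counted once, other windows and other length limits. The sequence of the cassette is not printed here.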

Additional observations from a re-analysis of the deposited data

Results flagged for a closer look

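The siFANCM difference in the rightward share of array joins differed between BRCA1del and BRCA1flox (ratio of odds ratios 0.158, adjusted p = 0.000281, interaction term, binomial likelihood-ratio test over the junctions of runs C and D). The siFANCM difference in the body share also differed between the genotypes (ratio 2.33, adjusted p = 5.46e-07, the same binomial test). The interaction tests take junctions as units, so they leave out the spread between libraries of a group.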

How the results depend on the processing

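No paired analysis was possible because the tables carry no replicate numbers (shared runs were the strata of the main test instead). Differences are siFANCM minus siLuciferase in percentage points. Pooling all runs turned the body share to -3.40, the rightward share to 1.92, microhomology of 4 bp or more to -0.954 and the left flank share to -1.69, and took microhomology (-7.16) and blunt joins (7.97) past the threshold. Counting each join once turned the array share to -0.111, a minimum of 6 bp turned long microhomology to -0.613, leftward joins alone, added after the data were seen, turned it to -0.0036, and a limit of 10 bp turned bait loss to 0.831. The cause was not tested.

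With run C or D left out, which leaves 1 library per group, the lowest and highest values were -5.61 and 5.19 for the body share, -15.7 and 6.17 for the array share, -9.52 and -1.55 for the rightward share, -11.3 and 12.4 for microhomology, -2.64 and 9.40 for long microhomology, -3.88 and 8.34 for blunt joins, -6.42 and 7.22 for insertions, -4.34 and 6.30 for bait loss, -4.73 and 14.7 for the left flank share and -12.4 and 13.9 for the first Ter share. With any library left out of the pooled comparison, they were in the same order -7.33 and -0.544, 0.681 and 4.20, -4.49 and 5.88, -8.88 and -5.05, -1.98 and -0.0240, 6.04 and 8.97, -6.08 and -0.209, -5.40 and 2.22, -3.35 and 0.444, and -4.68 and 7.44. Leaving out a library from the pooled comparison thus changed no sign for the body share, the array share, microhomology, long microhomology, blunt joins or insertions.

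No join site was called under any alternative, with 3 to 70 sites tested and 0 to 3 of them at an unadjusted p under 0.05 (exact tests). Site 3855 rightward turned to 0.857 points with all runs pooled, 0.158 without run D (-0.855 without run C) and 0.0698 with each join counted once. Site 3068 leftward turned to -0.223 with all runs pooled and -0.0364 without run D.

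Between the genotypes, 2 shares passed, 6 without run C, 1 without run D and 3 with all runs pooled; leaving out runs here was added after the data were seen. With a run left out, the ratio was 1.97 to 2.50 for the body share and 0.0335 to 0.297 for the rightward share, and with all runs pooled it was 1.73 and 0.212. Ratios that crossed 1 were 0.849 for microhomology with all runs pooled, and, with a run left out, 0.597 to 3.59 for microhomology, 0.719 to 4.49 for long microhomology, 0.544 to 1.38 for blunt joins, 0.653 to 1.04 for insertions and 0.878 to 4.73 for the left flank share. The 148 junctions of siFANCM run D limit what run D can show.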
